A study of Tursiops truncatus with 17 samples.

Results

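The p53 target genes described here are CDKN1A, BAX, MDM2, GADD45A, BBC3, SESN1, ZMAT3, PHLDA3 and CCNG1. These 9 genes were chosen by name as well-known direct targets of the tumour suppressor p53, with earlier results of these data known. A row with the gene's name was found for 8 of the 9 among the 21265 genes in the files. BBC3, which encodes the cell death protein PUMA, had no row under that name and was not analysed here. All 8 passed the filter on low counts and were tested among 13552 genes.

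The samples were frozen archived necropsy tissue of the cerebral cortex from wild-type bottlenose dolphins (Tursiops truncatus), with 1 messenger RNA library from each of 17 estuarine animals. The bloom group held 9 dolphins sampled in a bloom season and the non-bloom group held 8 sampled in a non-bloom season. The labels give season as the only difference, with no age, sex, date, exposure measurement or batch for any animal, so a batch that followed season cannot be told apart from it. Dolphins are numbered within their group in order of deposition.

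p53 is a transcription factor that cells hold at a low level, chiefly because the ubiquitin ligase MDM2 marks it for destruction. DNA damage and other stresses stabilise it. It then turns on genes that halt the cell cycle (CDKN1A, GADD45A), promote cell death (BAX, BBC3) and restrain growth signalling (SESN1, PHLDA3). Other targets act on RNA (ZMAT3) or, through a phosphatase, on MDM2 (CCNG1), and p53 closes the loop by making more MDM2. These roles come from work in human and mouse cells. Neurons in the mature cortex do not divide, and in them the same targets are studied mainly in relation to stress and cell death.

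Values are the deposited normalised values, in CPM (reads scaled to a fixed library size), with sizes scaled by TMM (trimmed mean of M values). Log2 changes are bloom minus non-bloom of log2(value + 1), a scale that makes changes of low genes look smaller, and come with a standard error (SE) from limma. A gene passed at a Benjamini-Hochberg adjusted p under 0.05 over all genes tested. Library totals ran from 7680050 to 12572653 reads in the bloom group and from 12346713 to 15635292 in the non-bloom group. Bloom 5, bloom 6 and bloom 9 stood apart from the other libraries: transcripts of the mitochondrial genome took 57.0%, 33.5% and 77.2% of their reads, against 1.47% to 19.5% in the other 6 bloom libraries and 9.68% to 22.1% in the non-bloom libraries. In bloom 9 only 1753299 reads were left for nuclear genes, less than in any other library. Results that rest on these 3 libraries are given with and without them.

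CDKN1A and BAX were higher in the bloom season, and the other 6 genes did not pass. The share of members called, 2 of 8, both higher, stands beside 9.16% of all genes tested that were called in either direction, 4.47% that were called higher and 4.69% called lower. At an unadjusted p under 0.05 there were 3 of 8, all higher, beside 35.4% of all genes. CCNG1 missed the threshold by limma and passed by edgeR's quasi-likelihood test on the recovered reads, which called 3 of the 8 (CDKN1A, CCNG1 and BAX) beside 8.29% of all genes (6.1% higher and 2.19% lower). MDM2 had nearly equal means, and ZMAT3 and PHLDA3 had lower values. Bloom and non-bloom values overlapped in each of the 8 genes, while they did not overlap in 0.657% of all genes tested. The median log2 change of the 8 genes was 0.28, beside -0.0034 for all genes tested. Because the set was chosen with earlier results of these data known, its comparisons with all genes are description only.

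**Figure D1:**
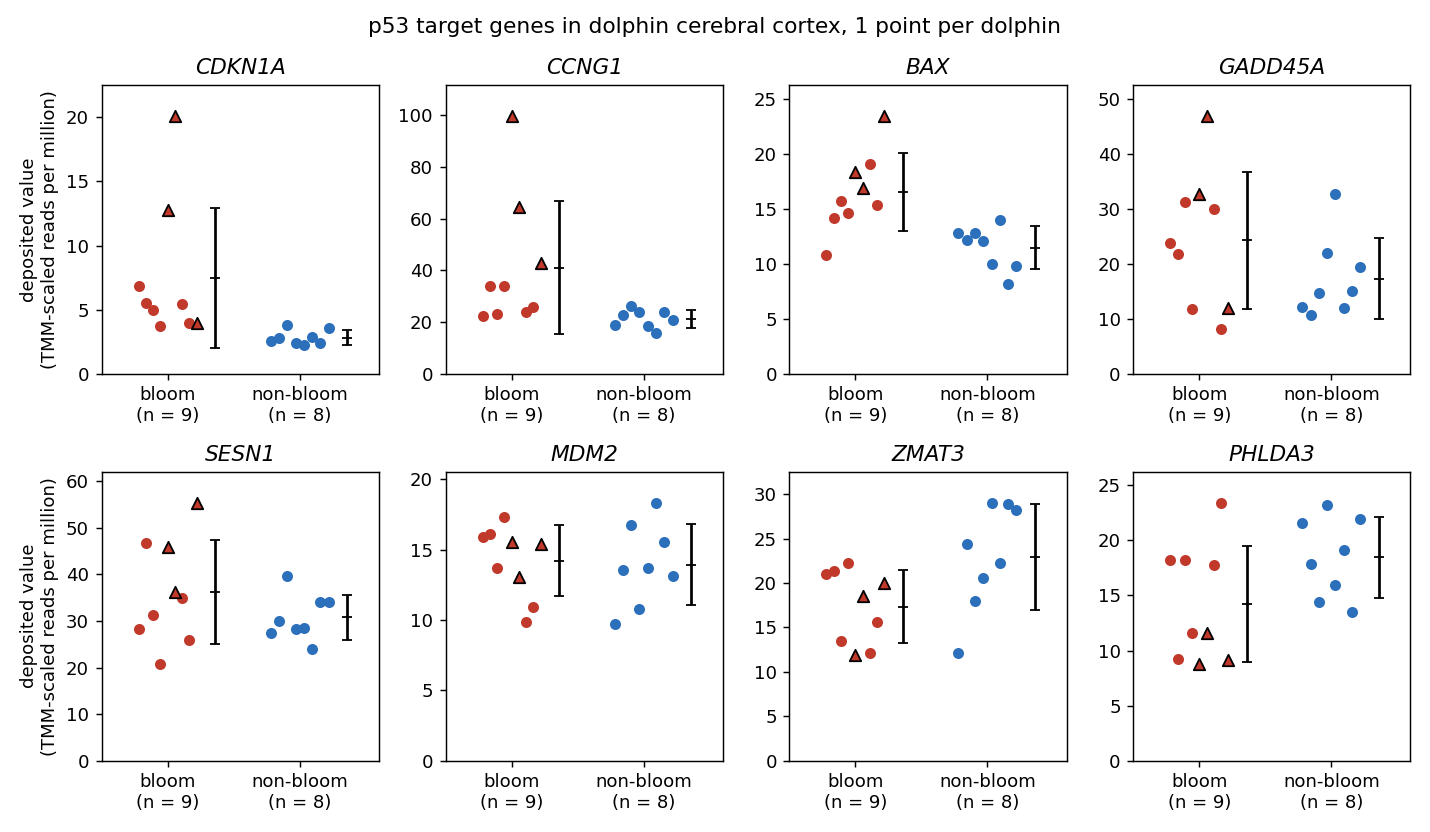
Deposited value (CPM, TMM-scaled, linear axis from 0) of each p53 target gene in each dolphin, bloom left and non-bloom right, with the mean ± SD beside each group; triangles are bloom 5, bloom 6 and bloom 9. CDKN1A and CCNG1 reached 20.1 and 99.7 in these libraries, while every bloom value of MDM2 lay inside the non-bloom range of 9.70 to 18.3.

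CDKN1A encodes p21, an inhibitor of cyclin-dependent kinases and the classic mediator of the p53-dependent cell cycle arrest. The gene lies on scaffold_103123 from 243867 to 245907 in the coordinates of the files; no build is named in the sources used here. Its lowest, median and highest values were 3.69, 5.46 and 20.1 in bloom dolphins, against 2.22, 2.67 and 3.81 in non-bloom dolphins. Bloom 6 (20.1) and bloom 5 (12.7) were far above the rest, and 8 of the 9 bloom libraries lay above the highest non-bloom library. The mean was 7.48 ± 5.48 in bloom (SD, n = 9) and 2.82 ± 0.586 in non-bloom dolphins (SD, n = 8), a ratio of 2.65. On the log2(value + 1) scale the log2 change was 0.97 (SE 0.26, limma adjusted p = 0.0372). On the recovered reads it was 1.40 by edgeR (adjusted p = 0.0260) and 1.42 by DESeq2.

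The higher CDKN1A did not rest on bloom 5, 6 and 9 alone. Without them the other 6 bloom dolphins averaged 5.09 ± 1.17 (SD, n = 6), between 3.69 and 6.88, and the log2 change was 0.66 (SE 0.15, limma adjusted p = 0.0336). In this comparison 2.34% of all genes passed (1.68% higher), and CDKN1A was the 1 member of 8 that did, by limma and by edgeR (adjusted p = 0.0386). The call was lost in 10 of 17 limma fits that left out 1 library, with an adjusted p of at most 0.0754: those without non-bloom 1, 2, 5, 6, 7 or 8 and those without bloom 2, 5, 6 or 7. Its log2 change stayed between 0.78 and 1.05 in all 17. Lost calls were common to most genes: of the 1241 genes called by limma in all dolphins, 56 passed whichever library was left out. CDKN1A had the smallest lowest read count of the 8 members, 7 reads in bloom 9. The value of 4.00 there has an exact 95% Poisson interval of 1.61 to 8.24, which covers counting error alone because PCR copies are not separate molecules.

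BAX encodes a pore-forming protein that opens the outer mitochondrial membrane during cell death. It lies on GeneScaffold_662 from 106236 to 110046. Values ran from 10.8 through a median of 15.7 to 23.4 in bloom dolphins, against 8.19, 12.1 and 13.9 in non-bloom dolphins. Bloom 1 was the 1 bloom library inside the non-bloom range, and bloom 9 was the highest of all. BAX averaged 16.5 ± 3.55 in bloom (SD, n = 9) and 11.5 ± 1.93 in non-bloom dolphins (SD, n = 8), and rose by a log2 change of 0.48 (SE 0.15, limma adjusted p = 0.0484; edgeR adjusted p = 0.0464).

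The difference in BAX was close to the threshold. Leaving out any 1 library other than bloom 1, bloom 4 or bloom 8 ended the call, with an adjusted p of at most 0.0904 and log2 changes between 0.41 and 0.55. Without bloom 5, 6 and 9 the mean of the bloom group was 15.0 ± 2.66 (SD, n = 6), and the log2 change of 0.36 (SE 0.14) had a limma adjusted p = 0.151.

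CCNG1 encodes cyclin G1, which in mouse and human cells binds a phosphatase that acts on MDM2. It lies on scaffold_92291 from 87630 to 91015. Its values were 22.4 at the lowest, 34.0 at the median and 99.7 at the highest in bloom dolphins, against 15.7, 21.7 and 26.1 in non-bloom dolphins. The 3 highest libraries were bloom 5 (99.7), bloom 6 (64.5) and bloom 9 (42.9), and 5 of 9 bloom libraries lay above every non-bloom library. The log2 change was 0.75 (SE 0.25) with a limma adjusted p = 0.0600 and an edgeR adjusted p = 0.0447. Without the 3 libraries the log2 change was 0.33 (SE 0.14, limma adjusted p = 0.166; edgeR adjusted p = 0.163).

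MDM2, the ligase that opposes p53 and is itself a p53 target, had close means in the 2 groups, 14.2 ± 2.52 in bloom (SD, n = 9) and 13.9 ± 2.90 in non-bloom dolphins (SD, n = 8). The gene lies on GeneScaffold_1180 from 140471 to 163845. Bloom values were 9.82, 15.4 and 17.3 at the lowest, median and highest, against 9.70, 13.6 and 18.3 in non-bloom dolphins. Every bloom library lay inside the non-bloom range. Its log2 change was 0.03 (SE 0.15, limma adjusted p = 0.896), with a 95% confidence interval of -0.28 to 0.34.

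GADD45A, a stress-induced protein that acts in growth arrest and DNA repair, varied widely among dolphins of both seasons. It lies on scaffold_114053 from 57556 to 59942. Its lowest, median and highest values were 8.10, 23.7 and 46.9 in bloom dolphins, against 10.8, 14.9 and 32.7 in non-bloom dolphins. The highest bloom library was bloom 6, the lowest of all 17 was bloom 8, and the groups overlapped over most of their range. The coefficient of variation was 51.3% in bloom and 42.1% in non-bloom dolphins. The log2 change of 0.37 (SE 0.31, limma adjusted p = 0.382) had a 95% confidence interval of -0.27 to 1.01.

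SESN1 and PHLDA3 both restrain growth signalling, SESN1 as a sestrin upstream of the kinase complex mTORC1 and PHLDA3 as a competitor of the kinase AKT for membrane lipids. SESN1, on GeneScaffold_3437 from 219716 to 327604, had values of 20.8, 34.9 and 55.4 in bloom dolphins, against 24.0, 29.3 and 39.6 in non-bloom dolphins. Bloom 9, bloom 2 and bloom 5 were above every non-bloom library and bloom 4 was below. Its log2 change was 0.18 (SE 0.17, limma adjusted p = 0.447), and -0.0029 (SE 0.16) without bloom 5, 6 and 9. The annotated interval of SESN1 overlaps a U12 small nuclear RNA gene, the only overlap with another listed gene among the 8.

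PHLDA3 had values of 8.76, 11.6 and 23.4 in bloom dolphins, against 13.5, 18.5 and 23.2 in non-bloom dolphins. Of the 9 bloom libraries 5 lay below every non-bloom library, bloom 5, 6 and 9 among them, while bloom 8 was the highest of all. The log2 change of -0.41 (SE 0.20) had a limma adjusted p = 0.147, and it was -0.19 (SE 0.19, limma adjusted p = 0.563) without the 3 libraries. PHLDA3 is annotated on scaffold_90839 from 50316 to 50648, a model of 333 bases, so its reads come from a short stretch.

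ZMAT3 encodes a zinc finger protein that binds RNA and acts on splicing in p53-dependent tumour suppression in mice. It lies on GeneScaffold_2748 from 82739 to 100285. Values were 11.9, 18.5 and 22.2 in bloom dolphins, against 12.2, 23.3 and 29.1 in non-bloom dolphins. All 9 bloom libraries lay below the non-bloom median, and non-bloom 1 was as low as the lowest bloom libraries. ZMAT3 averaged 17.4 ± 4.13 in bloom (SD, n = 9) and 22.9 ± 5.98 in non-bloom dolphins (SD, n = 8), with a log2 change of -0.37 (SE 0.18, limma adjusted p = 0.152; edgeR adjusted p = 0.128). The change was about as large without bloom 5, 6 and 9, at -0.35 (SE 0.20), and it did not pass there either (limma adjusted p = 0.296). Limma-voom with library quality weights, which called 30.4% of all genes, gave -0.58 with adjusted p = 0.0187.

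**Figure D2:**
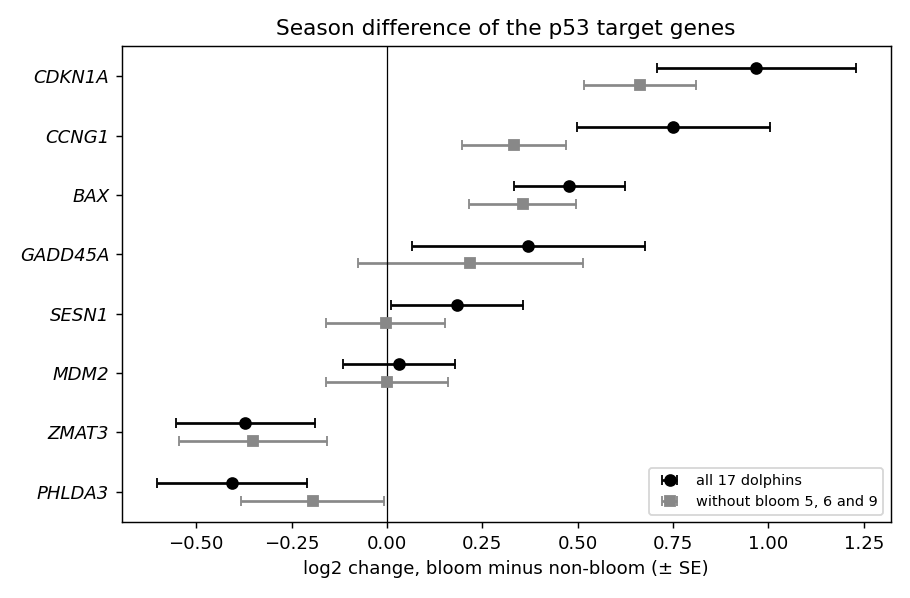
Log2 change of each p53 target gene, bloom minus non-bloom, with SE, for all 17 dolphins (black) and without bloom 5, 6 and 9 (grey). CDKN1A stayed at 0.66 without these libraries, while CCNG1 was 0.33 and MDM2 and SESN1 were near 0.

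No library was high across the whole set. The number of members above the non-bloom median ran from 4 to 6 of 8 among bloom dolphins and from 2 to 5 of 8 among non-bloom dolphins. Bloom 6 had the highest CDKN1A and GADD45A of all 17 libraries, bloom 5 the highest CCNG1 with the lowest ZMAT3 and PHLDA3, and bloom 9 the highest BAX and SESN1. MDM2 and ZMAT3 were highest in non-bloom dolphins 6 and 5. With the other 14 libraries and the season means removed, r was positive in 11 of 28 pairs of members. None of the 28 pairs passed by Pearson's r after adjustment (permutation test within season, 100000 resamples), and 4 had an unadjusted p under 0.05.

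The closest relation was an opposite one. BAX and ZMAT3 had r = -0.71 over 14 dolphins (permutation p = 0.00599, adjusted p = 0.168 over 28 pairs) and Spearman's rho = -0.78 (permutation p = 0.00171, adjusted p = 0.0479). Without the 2 dolphins farthest from the median of BAX, r was -0.71. MDM2 and PHLDA3 followed with r = -0.65 (permutation p = 0.0189, adjusted p = 0.207) and rho = -0.68 (permutation p = 0.0111, adjusted p = 0.155), and r was -0.67 without the 2 farthest dolphins. MDM2 and ZMAT3 had r = 0.62 (permutation p = 0.0251, adjusted p = 0.207) and rho = 0.44 (permutation p = 0.130, adjusted p = 0.659), and r was 0.26 without the 2 farthest dolphins, so this relation rests on those dolphins.

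**Figure D3:**
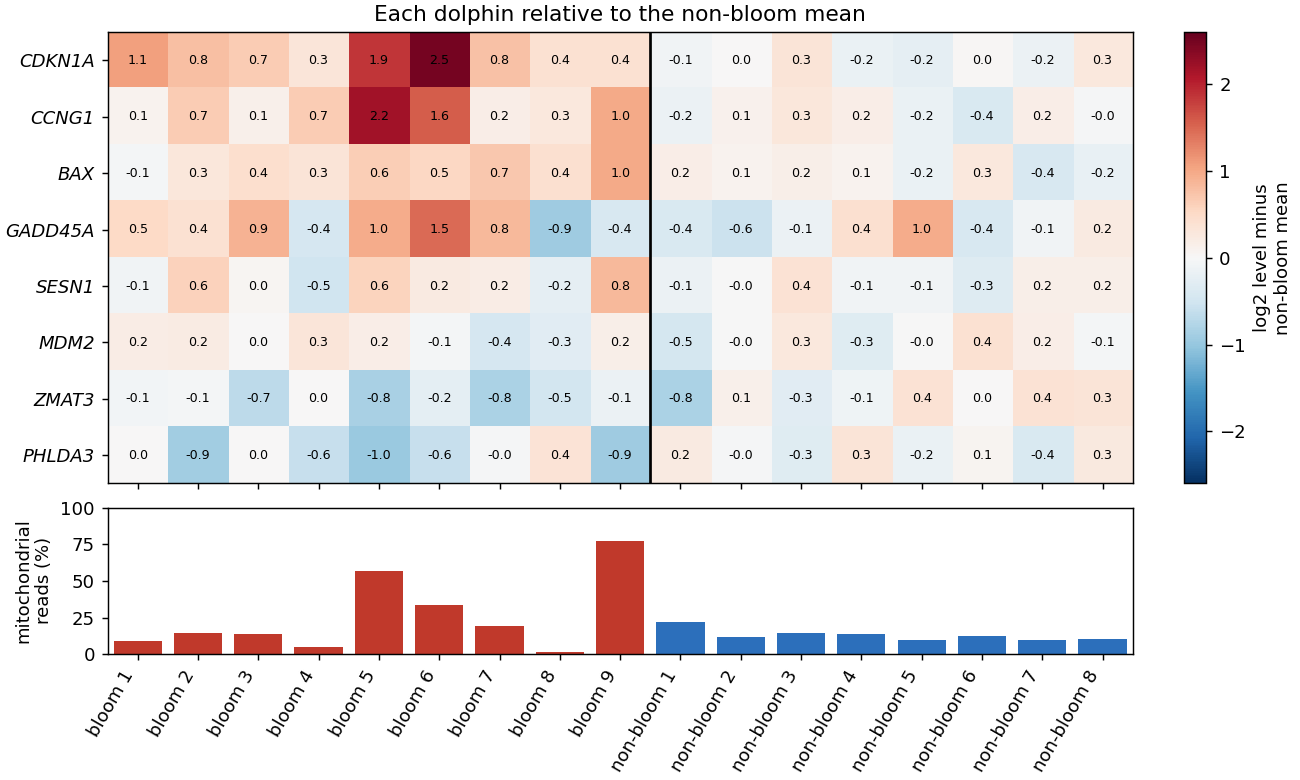
Upper panel: log2(value + 1) of each p53 target gene in each dolphin minus the non-bloom mean, bloom left of the line and non-bloom right; lower panel: percent of reads from the mitochondrial genome. CDKN1A was 2.48 above the non-bloom mean in bloom 6 and 1.86 above it in bloom 5, which had 33.5% and 57.0% mitochondrial reads.

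Among all genes tested, those most like CDKN1A across the same 14 dolphins, by Spearman's rho of levels with season means removed, were TTI1, PLAC8 and MYOM1, with rho of 0.84, 0.83 and 0.82. Those most like BAX were ERAL1, ITPA and VPS25, with rho of 0.94, 0.92 and 0.90. These are the highest of 13551 values each, given as a description with no test. None of the 6 passed between seasons (limma), with log2 changes from -0.26 for TTI1 to 0.75 for PLAC8.

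Markers of brain cell types differed between the same libraries. The summed value of 11 of 12 pan-neuronal markers found in the files ran from 2326 through a median of 7571 to 9757 in bloom dolphins, against 7711, 9594 and 12907 in non-bloom dolphins, and the lowest were bloom 5 and bloom 6 (3401). The 9 of 10 astrocyte markers found summed to between 401 and 6862 in bloom dolphins, with 6708, 5226 and 6862 in bloom 5, 6 and 9, against 323 to 1838 in non-bloom dolphins. The 9 of 10 endothelial markers summed to between 178 and 2850 in bloom dolphins, with 2509 and 2850 in bloom 5 and 6 and 178 in bloom 9, against 317 to 912 in non-bloom dolphins. CDKN1A and CCNG1 were highest in bloom 5 and 6, the libraries with the most endothelial and oligodendrocyte and the least pan-neuronal marker signal. By limma 2 of 9 oligodendrocyte markers were higher and 1 of 11 pan-neuronal markers was lower. EdgeR passed 1 in each of these 2 lists. At an unadjusted p under 0.05 by limma there were 6 oligodendrocyte and 7 pan-neuronal markers. The median log2 change was 0.70 for oligodendrocyte, -0.67 for pan-neuronal, 1.27 for astrocyte and 0.58 for endothelial markers. Of the astrocyte markers 0 of 9 passed by limma, 3 by edgeR and 4 at an unadjusted p under 0.05 by limma. Of the endothelial markers 0 of 9 passed by limma, 1 by edgeR and 1 at an unadjusted p under 0.05 by limma. Beside these marker counts, limma called 9.16% of all genes tested and edgeR 8.29%, and 35.4% had an unadjusted p under 0.05 by limma. In tissue RNA, fewer cells of a type and less RNA per cell cannot be told apart.

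Other marker lists also differed among the libraries. Oligodendrocyte markers (9 of 10 found) summed to 4407 to 19137 in bloom dolphins, with 18080, 19137 and 14110 in bloom 5, 6 and 9, against 1682 to 8018 in non-bloom dolphins. Pericyte and smooth muscle markers (8 of 8) summed to 59.1 to 262 in bloom dolphins, against 24.2 to 245 in non-bloom dolphins. Interneuron markers (10 of 10) summed to 59.6 to 415 in bloom dolphins, against 288 to 720 in non-bloom dolphins, and oligodendrocyte precursor markers (3 of 6) to 38.2 to 113 in bloom dolphins, against 49.0 to 152 in non-bloom dolphins. Microglia markers (7 of 10) summed to 0.537 to 32.1 in bloom dolphins, against 1.91 to 280 in non-bloom dolphins, and 6 of the 7 (AIF1, CX3CR1, P2RY12, C1QB, ITGAM and TREM2) were at 0 in at least 1 library. The 9 neutrophil and red cell markers summed to 25.01 to 2449 in bloom dolphins, against 150 to 1103 in non-bloom dolphins, and S100A8, S100A9, MPO, ELANE and CSF3R were at 0 in at least 1 library. By limma 5 of 10 interneuron markers were lower (median log2 change -1.21), and 4 passed by edgeR. Limma also called 1 of 3 precursor markers and 2 of 7 tested neutrophil and red cell markers lower. Of the pericyte and smooth muscle markers 1 of 8 was higher by limma, and 0 of 5 tested microglia markers passed. Of all genes tested, limma called 4.69% lower and 4.47% higher, and edgeR 2.19% lower and 6.1% higher.

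With the mean level of 11 pan-neuronal markers as a covariate, none of the 8 p53 target genes passed, where 0.0738% of all genes did. At an unadjusted p under 0.05 there were 2, CDKN1A and BAX, and the edgeR fit had no such covariate. The log2 change was 0.46 (SE 0.20, limma adjusted p = 0.400) for CDKN1A, 0.45 (SE 0.17, limma adjusted p = 0.335) for BAX and 0.22 (SE 0.17, limma adjusted p = 0.598) for CCNG1. The change of BAX was close to its size without the covariate (0.48), and that of CDKN1A was smaller than its 0.97. With the ratio of mitochondrial to other reads as a covariate the log2 changes were 0.90, 0.43 and 0.64, and all 3 passed (limma adjusted p = 0.0216, 0.0290 and 0.0428). In that fit 18.6% of all genes passed, 8.1% higher and 10.5% lower. The part of astrocyte, oligodendrocyte and endothelial RNA in these differences was not tested.

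Of 19 tested regulators of p53 (22 listed), 1 fell and none rose. USP7, a deubiquitinase that stabilises both MDM2 and p53, was at 141, 215 and 261 in bloom dolphins, against 273, 298 and 319 in non-bloom dolphins. USP7 values did not overlap between the groups, like those of 0.657% of all genes tested. Its log2 change was -0.54 (SE 0.13, limma adjusted p = 0.0311; edgeR adjusted p = 0.0338), and it was -0.34 (SE 0.08, limma adjusted p = 0.0451; edgeR adjusted p = 0.0554) without bloom 5, 6 and 9. Limma lost the call in 8 of the 17 fits without 1 library, non-bloom 1, 2, 6, 7 or 8 or bloom 2, 6 or 7 (adjusted p at most 0.0686). MDM4, the inactive relative of MDM2 that masks p53, the damage-activated kinase ATM and the phosphatase PPM1D, which switches the response off, did not pass, with log2 changes of 0.31 (SE 0.25), -0.30 (SE 0.19) and 0.15 (SE 0.14).

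Other p53 targets moved in both directions, with few past the threshold. None of 13 tested genes of cell cycle arrest passed by limma or edgeR; at an unadjusted p under 0.05 1 was higher and 1 lower, and DESeq2 and limma-voom each called 2. The kinases PLK2 and PLK3 had the smallest p, with log2 changes of -0.59 (SE 0.19, limma adjusted p = 0.0525) and 0.56 (SE 0.19, limma adjusted p = 0.0628). None of 12 tested cell death targets passed by limma. At an unadjusted p under 0.05 2 were higher and 1 lower, edgeR called 1, and DESeq2 and limma-voom each called 2. Beside the counts of both lists, 35.4% of all genes had an unadjusted p under 0.05 by limma. Of all genes, edgeR called 8.29%, DESeq2 23.4% and limma-voom 30.4%. AIFM2, an oxidoreductase that guards against lipid peroxidation, had a log2 change of -0.56 (SE 0.17, limma adjusted p = 0.0515). RPS27L, a ribosomal protein relative, was the gene called by edgeR, with a log2 change of 0.64 in the limma fit (SE 0.21, limma adjusted p = 0.0546; edgeR adjusted p = 0.0451). Reads of RPS27L may be shared with its near-identical relative RPS27, depending on the authors' counting.

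Among 10 tested repair targets MGMT rose and POLH fell. MGMT, which removes alkyl groups from guanine in DNA, was at 2.62, 3.93 and 9.21 in bloom dolphins, against 1.26, 2.25 and 2.54 in non-bloom dolphins. MGMT values did not overlap between the groups, like those of 0.657% of all genes tested. MGMT came close to an overlap, at 2.62 against 2.54, where 1 read was worth 0.0528 to 0.571 depending on the library. Its log2 change was 0.73 (SE 0.19, limma adjusted p = 0.0349; edgeR adjusted p = 0.0316), and 0.52 (SE 0.15, limma adjusted p = 0.0742) without bloom 5, 6 and 9. POLH, the polymerase that copies past ultraviolet lesions, averaged 4.98 ± 1.81 in bloom (SD, n = 9) and 7.75 ± 1.04 in non-bloom dolphins (SD, n = 8), a log2 change of -0.60 (SE 0.18, limma adjusted p = 0.0447; edgeR adjusted p = 0.0570). Both calls were lost in limma fits without non-bloom 1, 2, 6, 7 or 8 or bloom 2, 5, 6 or 7, and POLH also without non-bloom 3, 4 or 5 or bloom 3 or 9; the adjusted p was at most 0.0888.

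Of 17 tested targets of metabolism and redox control 2 fell by limma. SESN3, a sestrin like SESN1, averaged 18.2 ± 5.44 in bloom (SD, n = 9) and 29.9 ± 6.50 in non-bloom dolphins (SD, n = 8), a log2 change of -0.71 (SE 0.18, limma adjusted p = 0.0321; edgeR adjusted p = 0.0324). CPT1C, a brain form of carnitine palmitoyltransferase, averaged 31.8 ± 13.8 in bloom (SD, n = 9) and 53.7 ± 8.89 in non-bloom dolphins (SD, n = 8), with a log2 change of -0.84 (SE 0.23, limma adjusted p = 0.0402; edgeR adjusted p = 0.0512). Without bloom 5, 6 and 9 neither passed, at -0.55 (limma adjusted p = 0.0815) and -0.45 (limma adjusted p = 0.0954). SESN3 lost its call in limma fits without non-bloom 2, 6, 7 or 8 or bloom 2, 5, 6 or 7, and CPT1C in these and without non-bloom 1, 3 or 5, with an adjusted p of at most 0.0811. edgeR called 3 genes of this list: SESN3, and 2 named here after their values were seen, the mTORC1 inhibitor DDIT4 (edgeR log2 change 1.95, adjusted p = 0.0451; limma adjusted p = 0.0522) and the proline-pathway enzyme ALDH4A1 (edgeR log2 change 2.03, adjusted p = 0.0441; limma adjusted p = 0.0857).

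The partners of CDKN1A, BAX and SESN1 gave few calls. Of 17 tested kinases, cyclins and inhibitors of the cell cycle, CDK4, the kinase that starts passage through G1, averaged 49.6 ± 19.8 in bloom (SD, n = 9) and 29.1 ± 5.12 in non-bloom dolphins (SD, n = 8), and rose by a log2 change of 0.68 (SE 0.20, limma adjusted p = 0.0443; edgeR adjusted p = 0.0358). CCND2, cyclin D2, averaged 16.7 ± 8.27 in bloom (SD, n = 9) and 30.9 ± 9.38 in non-bloom dolphins (SD, n = 8), and fell with a log2 change of -0.94 (SE 0.28, limma adjusted p = 0.0459; edgeR adjusted p = 0.0554). Without bloom 5, 6 and 9 these were 0.36 (limma adjusted p = 0.117) and -0.68 (limma adjusted p = 0.131). Calls of CDK4 and CCND2 were lost in 12 and 14 of the 17 limma fits that left out 1 library (adjusted p at most 0.0905), and both held without bloom 1, 4 or 8. CCNA2, cyclin A2, named here after its values were seen, was the 1 gene of this list that passed without bloom 5, 6 and 9 (log2 change 0.78, SE 0.17, limma adjusted p = 0.0336; edgeR adjusted p = 0.0375), and it did not pass in all 17 dolphins (0.47, SE 0.24, limma adjusted p = 0.168). The mitotic genes CDK1, CCNB1 and MKI67 had at most 6 reads in any library and were not tested.

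None of 15 tested BCL2 family and caspase genes passed by limma, edgeR or DESeq2 (which called 23.4% of all genes, 14.4% higher and 9.05% lower). Limma-voom called 2, beside 30.4% of all genes. At an unadjusted p under 0.05 by limma 2 were lower and 0 higher, beside 35.4% of all genes in either direction. BCL2L11, the cell death activator BIM, and XIAP, a caspase inhibitor, had the smallest p, with log2 changes of -0.56 (SE 0.20, limma adjusted p = 0.0643) and -0.28 (SE 0.13, limma adjusted p = 0.138). Of 20 tested genes of amino acid sensing upstream of mTORC1, SESN3 was the 1 that passed, lower, and 16 of the 20 had negative log2 changes and 4 positive ones (median -0.11), where 49.7% of all genes had positive ones. Over all 8 lists 7 of 121 distinct tested genes passed, 2 higher and 5 lower, which is 5.79% beside 9.16% of all genes.

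**Figure D4:**
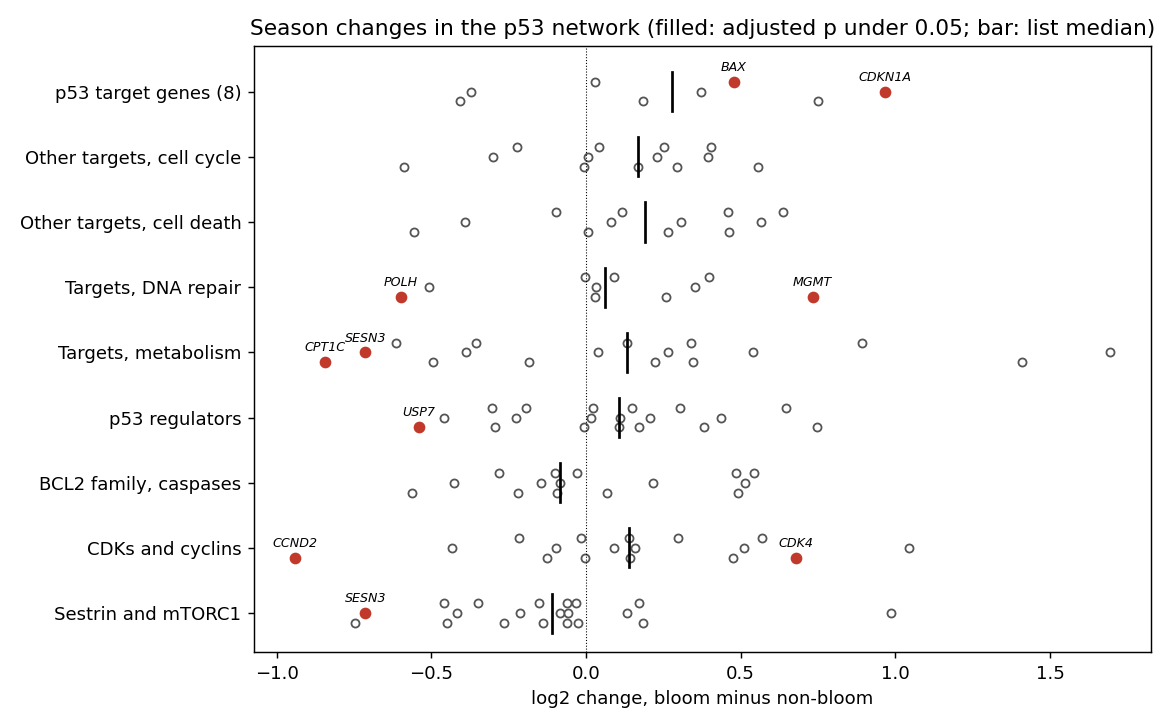
Log2 change, bloom minus non-bloom, of each tested gene of the p53 target set and of 8 lists of the p53 network; filled points passed at an adjusted p under 0.05 (limma) and the bar is the list median. Members passed in 2 of 8 cases, both higher, and list medians lay between -0.11 and 0.28.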

How the data were processed

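Per the labels, total RNA from about 100 mg of frozen cortex (median integrity number 9.1) went into a messenger RNA kit with 14 PCR cycles. Trimming with Trim Galore 0.6.1 and alignment software STAR 2.5.2a are named in the submitters' processing notes. No source used here names the counter, build, annotation or strand setting. The files hold, as deposited by the authors, a normalised signal for every gene. Nonzero values were whole multiples of the value of 1 read (100% within 0.01), and the authors' divisors equalled TMM sizes recomputed here, so whole reads were recovered. A count of 3 reads corresponded to 0.158 to 1.71, depending on the library.

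Season was tested with limma-trend on the logarithm of the value plus a pseudocount of 1, with no covariate, over genes kept by edgeR's filterByExpr (minimum count 10, minimum total 15) and Benjamini-Hochberg adjustment over all of them. On the recovered reads, edgeR's quasi-likelihood test, DESeq2 and limma-voom with quality weights were run. Further settings were 3 other scalings (relative log expression, upper quartile, TMM without mitochondrial genes), no filter, a value of 1 in 8 libraries, a pseudocount of 0.1, a pan-neuronal or mitochondrial covariate, and leaving out each library, bloom 5 and 9, or bloom 5, 6 and 9. The edgeR fit without bloom 5, 6 and 9 was chosen after seeing the data. Pairs of members were tested by permutation within season. R 4.3.3, limma 3.58.1, edgeR 4.0.16 and DESeq2 1.42.0 were used, and the fit was tested on simulated data.

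The closest pair of libraries, non-bloom 2 and non-bloom 8, differed by a chi-square of 15.2 per gene, so none was counted as a copy. The labels name 1 dolphin per library. Named genes are all members, the passing genes of each list or else the 2 with the smallest p, MDM4, ATM and PPM1D, and the 3 genes most like CDKN1A and BAX. Outside this rule, DDIT4, ALDH4A1, CCNA2 and the untested CDK1, CCNB1 and MKI67 were named after their values were seen. The members and lists were chosen with earlier results of these data known. A planned motif search was not run, because no promoter sequence was used here. A gene withheld from this text is not reported here.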

Additional observations from a re-analysis of the deposited data

Results flagged for a closer look

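Of 18 groups of values examined for a library far from the others (each member and the mitochondrial share, in each season), 1 was found, about what chance gives at 1 in 20. Non-bloom 1 had 22.1% mitochondrial reads, apart from the other 7 non-bloom libraries. It also had the lowest MDM2 of all 17 libraries (9.70).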

How the results depend on the processing

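CDKN1A, BAX, CCNG1, ZMAT3 and PHLDA3 kept their direction in all settings tried. CDKN1A did not pass with no filter (0.97, adjusted p = 0.0530) or the pan-neuronal covariate (0.46), and its adjusted p ran from 0.00121 by DESeq2 to 0.400. BAX did not pass with no filter (0.48), a pseudocount of 0.1 (0.51), the pan-neuronal covariate (0.45), without bloom 5, 6 and 9 (0.36, or 0.38 by edgeR) or without bloom 5 and 9 (0.38). CCNG1 passed by edgeR (0.94), DESeq2 (0.97), with the mitochondrial covariate (0.64) and without bloom 1 (0.83) or bloom 8 (0.81). ZMAT3 passed by limma-voom (-0.58). The sign turned for MDM2 by limma-voom (-0.055) and without bloom 5 and 9 (-0.0083). It also turned for MDM2 without non-bloom 1 (-0.035), non-bloom 4 (-0.015) or bloom 4 (-0.0057). For GADD45A it turned with the pan-neuronal covariate (-0.044), and for SESN1 with that covariate (-0.023) and without bloom 5, 6 and 9 (-0.0029). The cause was not tested.

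Without 1 library the log2 change ran from 0.78 to 1.05 for CDKN1A, 0.41 to 0.55 for BAX, -0.035 (without non-bloom 1) to 0.089 for MDM2 and 0.57 to 0.83 for CCNG1. Of all genes, 1241 passed in the full comparison, 61 without non-bloom 2 and 2895 without bloom 1, the lowest and highest without 1 library. DESeq2 called 3173, limma-voom 4124, no filter 560, the limma fit without bloom 5, 6 and 9 320, that without bloom 5 and 9 566, edgeR without bloom 5, 6 and 9 228, the pan-neuronal covariate 10 and the mitochondrial covariate 2518.

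Of the members, 2 passed in the full comparison, 0 with no filter or the pan-neuronal covariate, 1 with a pseudocount of 0.1, without bloom 5 and 9 or without bloom 5, 6 and 9 (limma and edgeR), and 0 to 3 without 1 library. Of all genes, DESeq2 called 23.4%, limma-voom 30.4%, the mitochondrial covariate fit 18.6%, edgeR 8.29% and no filter 3.19%. Limma fits without 1 library called 0.447% to 21.5%. The full comparison tested 19 regulators and 13 arrest, 12 cell death, 10 repair and 17 metabolic targets. It also tested 15 BCL2 family genes, 17 cell cycle partners and 20 amino acid sensing genes. Regulators had 4 calls by DESeq2, 6 by limma-voom, 2 with the mitochondrial covariate, 0 by edgeR without bloom 5, 6 and 9 and 0 to 4 without 1 library. Arrest targets had 1 with relative log expression, TMM without mitochondrial genes or the mitochondrial covariate, 2 by DESeq2 and limma-voom, and 0 to 1 without 1 library. Cell death targets had 1 under those 2 scalings and by edgeR, 2 by DESeq2, limma-voom and the mitochondrial covariate, and 0 to 2 without 1 library. Repair targets had 1 by edgeR and with no filter, 5 by limma-voom and 0 to 3 without 1 library. Metabolic targets had 5 by DESeq2, 4 by limma-voom, 1 with no filter and 0 to 5 without 1 library. BCL2 family genes had 2 by limma-voom and 0 to 2 without 1 library. Cell cycle partners had 5 by DESeq2, 6 by limma-voom, 1 by edgeR, no filter, a pseudocount of 0.1 and without bloom 5 and 9 or 5, 6 and 9 (limma and edgeR), and 0 to 3 without 1 library. Amino acid sensing genes had 3 by DESeq2, 4 by limma-voom and 0 to 3 without 1 library. Repair, metabolic and amino acid sensing genes had 0 calls in the 3 fits without bloom 5 and 9 or 5, 6 and 9, and all lists had 0 with the pan-neuronal covariate.

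The mitochondrial share was 12.5 percentage points higher in bloom libraries (exact permutation p = 0.235) and -2.65 points without bloom 5, 6 and 9 (exact permutation p = 0.386). Depth differed by season. Bloom minus non-bloom, mean total reads differed by -2913600 (exact permutation p = 0.000288, adjusted p = 0.000864 over 3 measures). Mean reads outside the mitochondrial genome differed by -3577670 (exact permutation p = 0.00880, adjusted p = 0.0132). No paired analysis was possible because the replicate numbers only follow the order of deposition. Depth limits low genes most in bloom 9, where CDKN1A had 7 reads.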
